A study of Solanum lycopersicum with 9 samples.

Results

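The transcripts described here belong to the core of abscisic acid signalling in tomato guard cells: 6 loci of clade A protein phosphatases 2C (PP2C), the SnRK2 kinase locus Solyc01g108280, which resembles OST1, and the bZIP transcription factor locus AREB1 (Solyc04g078840). They were chosen by identifier, and all 8 were found among the 23028 genes listed, each on 1 row. Guard cells are the paired epidermal cells that border the stomatal pore. RNA came from guard cells isolated by blending leaves and collecting the epidermal pieces on a mesh. All plants were tomato cultivar M82 with the genotype sp-/sp, as the labels write it, grown in a growth room, and no withholding of water is named for these samples. There were 3 libraries of M82 itself, 3 of the line pro, which has lost DELLA function, and 3 of the line pro17 (pro∆17), which expresses a DELLA gain-of-function form. The titles of pro17 libraries 2 and 3 number the line differently from their genotype label, which was followed here. The promoter that drives the gain-of-function form, the number of independent lines and the plants behind each library are not in the labels, so the spread behind each p-value is that between libraries and may be technical. The series is about the part of DELLA in how tomato plants respond to a deficit of water.

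Abscisic acid is the hormone that closes stomata in drying leaves. In the textbook pathway, clade A PP2Cs are the brake: they hold SnRK2 kinases inactive until hormone-bound receptors of the PYR/PYL family block the phosphatases. The freed kinases then phosphorylate ion channels of the guard cell and bZIP factors of the AREB/ABF group, which switch on response genes. In Arabidopsis many clade A PP2C genes are themselves induced by abscisic acid, a negative feedback, while OST1 is the kinase that dominates in guard cells. DELLA proteins hold back the responses to gibberellin, which triggers their breakdown.

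Between 14826561 and 20445679 reads per library fell on the listed genes. Pro library 3 stood apart. The locus Solyc02g084850, known as the dehydrin gene TAS14, whose protein builds up when tissue loses water, had a value of 35710 normalized counts there. It stood at 331 and 7.91 in pro libraries 1 and 2, at 12.6 to 174 in M82 and at 35.9 to 42.2 in pro17. A normalized count is the number of reads of a gene divided by a scaling factor of its library. The 13 mesophyll loci (small subunit of Rubisco and chlorophyll a/b binding proteins) summed to 153710 in pro library 3, against 304862 and 509198 in pro libraries 1 and 2, 321418 to 436621 in M82 and 335313 to 369469 in pro17. No mesophyll locus was at 0 in any library of these guard cell preparations. The 5 guard cell and stomatal lineage loci summed to 2272 to 2937 in M82, 2275 to 3067 in pro and 2404 to 2535 in pro17, and none was at 0. Single loci moved more widely. Their log2 fold changes ran from -1.60 to 0.07 in pro against M82 (1 positive, 4 negative). In pro17 against pro they ran from -0.44 to 1.75 (4 positive, 1 negative), and none passed the test over all genes given below. The marker loci and the dehydrin name came from general knowledge and were not checked against an annotation. In bulk RNA, fewer cells of a type and less RNA per cell cannot be told apart.

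The phosphatases differed in one respect above all: 5 of the 6 loci spread widely among the pro libraries, and 1 varied little. The locus with the widest spread was Solyc03g096670. It read 208, 249 and 351 normalized counts in M82 libraries 1, 2 and 3, 707, 101 and 3512 in pro, and 174, 136 and 117 in pro17. The highest and the lowest of all 9 values both lay in pro, 34.8-fold apart, and the 3 pro17 values lay below the 3 M82 values. Solyc07g040990 read 275, 302 and 555 in M82, 645, 269 and 2259 in pro, and 310, 294 and 334 in pro17. Its pro libraries were 8.40-fold apart and enclosed all other libraries.

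Solyc03g121880 read 1506, 1558 and 2475 normalized counts in M82, 2672, 1286 and 9133 in pro, and 1809, 1821 and 1689 in pro17. Solyc05g052980 read 1398, 1445 and 2876 in M82, 3597, 1212 and 7648 in pro, and 1687, 1538 and 1456 in pro17. Both loci had the same order in pro, with library 3 highest and library 2 lowest, 7.10-fold and 6.31-fold apart, and in both M82 library 3 lay above the other M82 libraries.

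Solyc06g076400 read 1591, 1774 and 2751 normalized counts in M82, 4379, 1974 and 7325 in pro, and 1444, 1526 and 1438 in pro17. Every pro17 library lay below every library of the other groups, while pro and M82 overlapped. The pro17 libraries differed by only 1.06-fold.

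The sixth phosphatase locus, Solyc12g096020, behaved differently. It read 3733, 3848 and 3919 normalized counts in M82, 3799, 2937 and 3965 in pro, and 4086, 4927 and 4711 in pro17. Here the 3 pro17 libraries lay above all others, and pro library 3, where the other phosphatases peaked, lay at 1.03-fold the M82 mean. The 9 libraries spanned 1.68-fold.

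**Figure D1:**
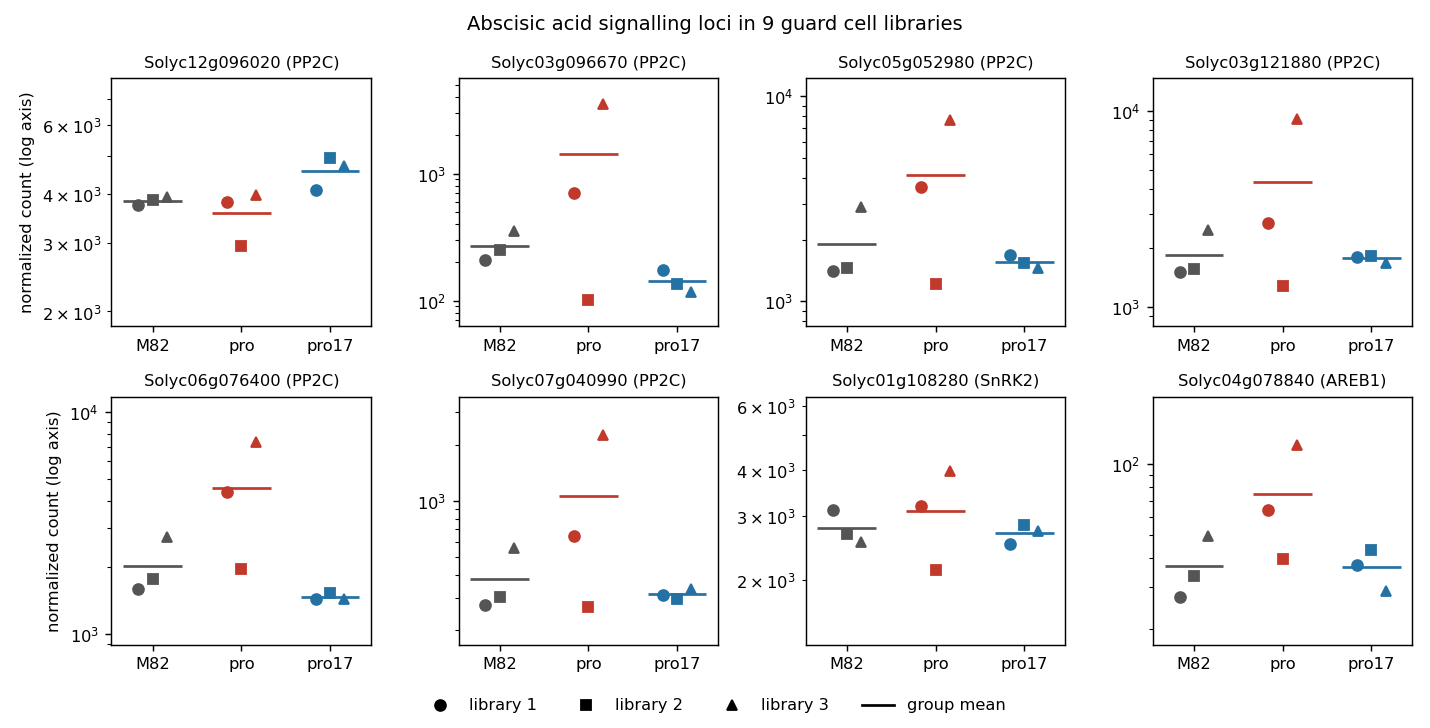
Normalized counts (log axis, one scale per panel) of the 8 loci in the 3 libraries of M82, pro and pro17; points are libraries, by shape, and bars are group means. At 5 PP2C loci and AREB1 pro library 3 lies far above the rest and pro library 2 is the lowest of pro, while Solyc12g096020 spans 1.68-fold and the SnRK2 locus 1.87-fold over all 9 libraries.

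The positive regulators also parted. The SnRK2 locus Solyc01g108280, whose kinase acts between the phosphatases and their targets, read 3114, 2675 and 2539 normalized counts in M82, 3197, 2127 and 3977 in pro, and 2511, 2832 and 2720 in pro17. Its highest and lowest values were again pro libraries 3 and 2, but only 1.87-fold apart. M82 library 3, high at the 5 variable phosphatases, was the lowest of M82 here.

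AREB1, the bZIP factor that acts downstream of the kinase, read 27.4, 33.4 and 49.8 normalized counts in M82, 64.0, 39.5 and 121 in pro, and 37.4, 43.1 and 29.0 in pro17. It followed the variable phosphatases rather than the kinase, with pro library 3 highest at 3.28-fold the M82 mean and M82 library 3 highest of M82. AREB1 rested on 24 to 135 reads per library, so counting alone adds an error of about 20.4% at the lowest value. At the other 7 loci the lowest library held 97 reads (Solyc03g096670) to 2972 reads (Solyc12g096020).

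Within pro, all 8 loci had the order library 3 above library 1 above library 2, as did 29.9% of the 20951 genes tested. Pro library 3 was the highest of the 9 libraries at 7 of the 8 loci, against 29.4% of genes tested. M82 library 3 was the highest of its group at 7 of 8, against 38.9%. The median log2 difference of the 6 phosphatases from their M82 means was 0.92, -0.45 and 2.22 in pro libraries 1, 2 and 3, while the median gene tested lay within 0.02 of 0 in every library. The dehydrin locus had the same order (35710, 331 and 7.91), and the mesophyll sum the opposite one. The part of the mesophyll transcripts in the phosphatase levels was not tested.

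**Figure D2:**
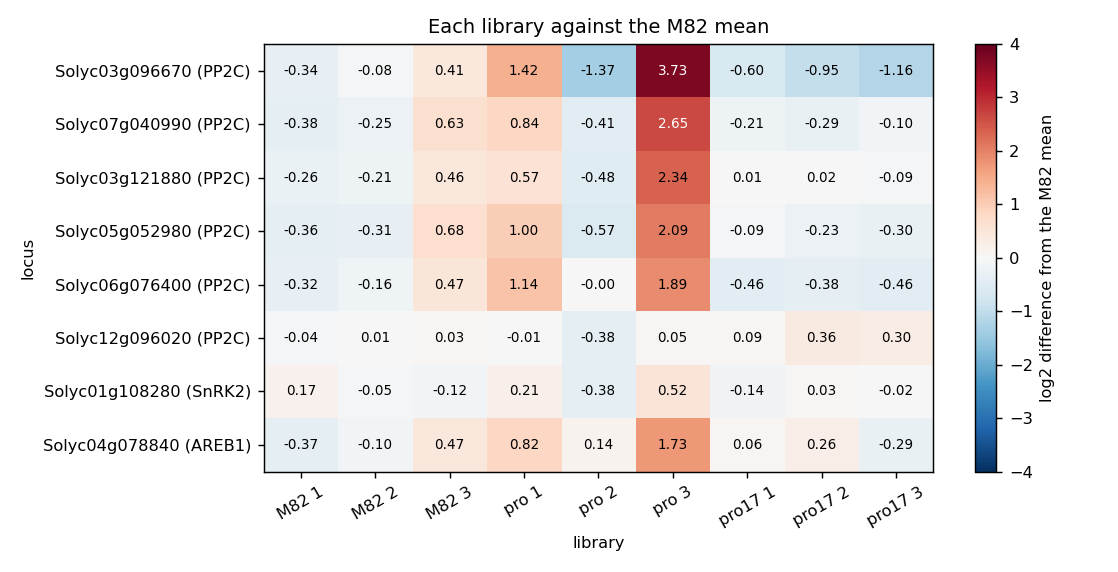
Difference of each library (columns) from the M82 mean on the scale log2(normalized count + 1) for the 8 loci (rows); red is higher and blue lower. The column of pro library 3 reaches 3.73 at Solyc03g096670 and stays at 0.05 at Solyc12g096020, and the pro17 columns lie between -1.16 and 0.36.

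The spread itself differed by group. On the log2 scale the SD of Solyc03g096670 was 0.38 in M82, 2.56 in pro and 0.29 in pro17 (n = 3 each), where the median gene tested had 0.21, 0.36 and 0.14. Of all genes tested, 99.5% varied less than this locus among the pro libraries. For the other variable phosphatases the SD in pro ran from 0.95 at Solyc06g076400 to 1.54 at Solyc07g040990, and in pro17 from 0.05 at Solyc06g076400 to 0.11 at Solyc05g052980. Solyc12g096020 varied less than the median gene in M82 (0.04) and in pro (0.23), and at the median in pro17 (0.14).

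The first comparison asks what loss of DELLA does: pro against M82. On group means, the 5 variable phosphatases stood higher in pro, by 2.18-fold (Solyc05g052980) to 5.35-fold (Solyc03g096670), AREB1 by 2.03-fold and the kinase by 1.12-fold, and Solyc12g096020 was at 0.93-fold. None of these differences passed the test over all genes, and the groups overlapped at all 8 loci (9.01% of genes tested had groups that did not overlap). With limma on log2(normalized count + 1), 0 of 8 passed an adjusted p of 0.05 (Benjamini-Hochberg over all genes tested), where 0.21% of genes did, and 1 had an unadjusted p under 0.05, as did 6.83% of genes. EdgeR on the recovered reads called 0 of 8 and 0.181% of genes, DESeq2 called 0 of 8 and 0.873% of genes, and the authors' deposited table called 0 of 8 and 0.751% of the genes it lists.

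The phosphatase Solyc06g076400 came closest, with 2039 ± 623 in M82 and 4559 ± 2680 in pro (mean ± SD, n = 3; log2 fold change 1.01 ± 0.41 SE, adjusted p = 0.712 in limma). For Solyc03g096670, with 269 ± 73.4 and 1440 ± 1820, the log2 fold change was 1.26 ± 1.01 SE (adjusted p = 0.726 in limma). The interval for that fold change ran from 0.49-fold to 11.6-fold (95%), so these libraries neither show nor exclude a large rise. By contrast the interval was 0.73-fold to 1.16-fold at Solyc12g096020 and 0.78-fold to 1.51-fold at the SnRK2 locus. For AREB1, with 36.9 ± 11.6 and 74.8 ± 41.8, the log2 fold change was 0.90 ± 0.41 SE (adjusted p = 0.712 in limma) and the interval 0.98-fold to 3.54-fold.

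The median log2 fold change of the 6 phosphatases was 0.92 (5 positive, 1 negative), against -0.0027 for all genes tested. Without pro library 3 it was 0.13. Solyc03g096670 then had 0.02, Solyc03g121880 0.04, Solyc07g040990 0.21, Solyc05g052980 0.22, AREB1 0.48 and Solyc06g076400 0.57. None of the 8 then passed in limma, where 0.215% of genes did. Without pro library 2, the lowest one, the median was 1.53, and 2 loci passed over all genes: Solyc06g076400 (1.52, adjusted p = 0.0256 in limma) and Solyc03g096670 (2.58, adjusted p = 0.0443 in limma), where 3.66% of genes did (0.768% higher in pro). Pro and M82 libraries of the same number deviated together from their group means. Even so, M82 library 1 was closer to pro library 2 (r = 0.259 across genes) than to pro library 1 (r = 0.133). The fit with the replicate number as a block called 0 of 8 and 0.162% of genes.

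**Figure D3:**
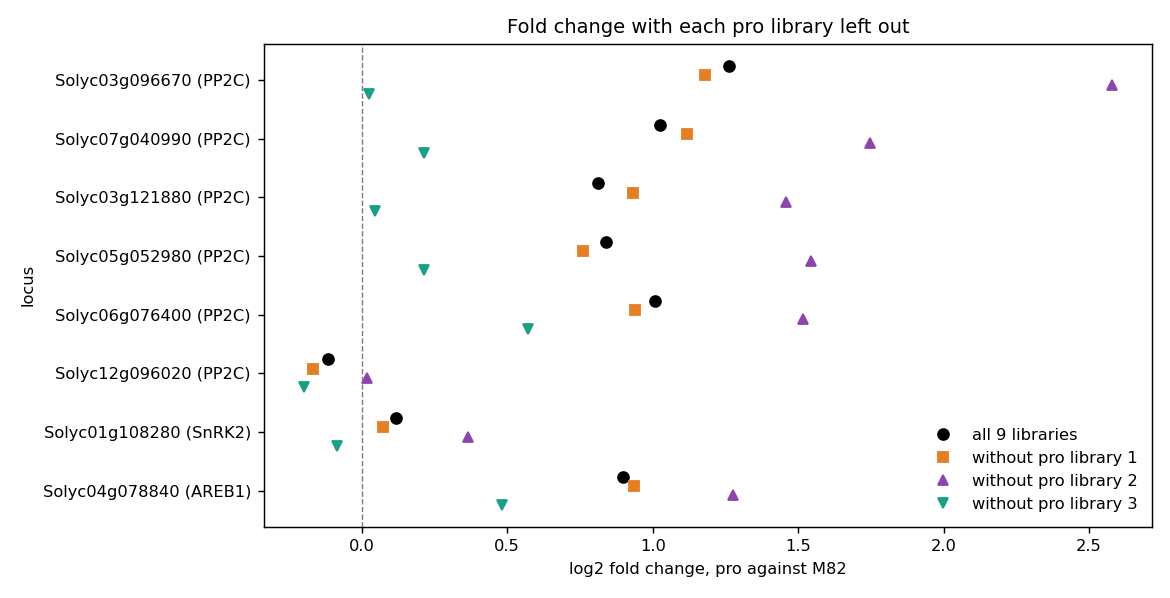
Log2 fold change of pro against M82 for the 8 loci with all 9 libraries and with each pro library left out in turn. Without pro library 3 the values fall to between -0.20 and 0.57, and without pro library 2 they lie between 0.02 and 2.58, so single libraries set the size of the change at the 5 variable phosphatases and AREB1.

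The second comparison asks what gain of DELLA does: pro17 against M82, which share the M82 libraries with the first. Limma called 0 of 8 loci and 0.119% of genes. None of the 8 loci had an unadjusted p under 0.05 in limma, while 7.79% of genes did. EdgeR called 0 of 8 and 0.0811% of genes, DESeq2 0 of 8 and 1.56%, and the authors' deposited table called 0 of 8 and 1.34%. The median log2 fold change of the phosphatases was -0.20 (1 positive, 5 negative), against -0.0089 for all genes tested. Its direction rested on M82 library 3, without which it was 0.12 with 4 of 6 positive, and it was -0.39 and -0.34 without M82 libraries 1 and 2. The groups did not overlap at 3 of the 6 phosphatase loci and at 21.1% of genes tested. Solyc03g096670 (269 ± 73.4 in M82, 142 ± 28.8 in pro17) and Solyc06g076400 (2039 ± 623 and 1470 ± 49.1) were lower in every pro17 library, a pattern shown by 10.7% of genes tested. Solyc12g096020 (3833 ± 93.6 and 4575 ± 437) was higher in every pro17 library, as were 10.5% of genes.

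The fitted log2 fold changes of these 3 loci were -0.90 ± 1.01 SE (adjusted p = 0.980), -0.43 ± 0.41 SE (adjusted p = 0.954) and 0.25 ± 0.15 SE (adjusted p = 0.798) in limma. That fit draws its spread from all 3 groups, and at these loci pro varied most. Fitted on the M82 and pro17 libraries alone, limma called 0 of 8 loci and 2.08% of genes, and Solyc03g096670 had an adjusted p of 0.087, Solyc06g076400 0.318 and Solyc12g096020 0.293. The kinase was at 2776 ± 300 in M82 and 2688 ± 163 in pro17, a fold change of 0.97 with a 95% interval of 0.70 to 1.35. AREB1 was at 36.9 ± 11.6 and 36.5 ± 7.12, a fold change of 1.01 with an interval of 0.53 to 1.91.

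The third comparison sets the lines with opposite DELLA activity side by side. On group means, the 5 variable phosphatases and AREB1 were lower in pro17 than in pro and Solyc12g096020 higher. The groups overlapped at AREB1 and at every variable phosphatase except Solyc06g076400. At those overlapping phosphatases, pro library 2 lay below every pro17 library. In limma 0 of 8 passed, where 3.4% of genes did. Of the 8, 2 had an unadjusted p under 0.05, against 18.1% of genes tested. The median log2 fold change of the phosphatases was -1.14, against 0.0066 for all genes. It was -0.42 without pro library 3 and -1.85 without pro library 2.

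Solyc06g076400, at 4559 ± 2680 in pro and 1470 ± 49.1 in pro17, had a log2 fold change of -1.44 ± 0.41 SE (adjusted p = 0.102 in limma). The 2 groups did not overlap, as at 22.9% of genes tested, of which those lower in pro17 made up 11.2% of all. Its direction did not rest on pro library 3, without which the value was -1.0004 (adjusted p = 0.123 in limma). The other variable phosphatases also stayed negative then, at -0.926 to -0.065. Solyc12g096020, at 3567 ± 551 and 4575 ± 437, had a log2 fold change of 0.37 ± 0.15 SE (adjusted p = 0.228 in limma), or 0.45 without pro library 3 (adjusted p = 0.110). Every pro17 library was above every pro library, as at 11.7% of genes.

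The tools differed here. DESeq2 on the recovered reads called 3 phosphatases lower in pro17, namely Solyc06g076400 (-1.63, adjusted p = 0.00262), Solyc03g096670 (-3.34, adjusted p = 0.0164) and Solyc07g040990 (-1.76, adjusted p = 0.0491), where it called 8.83% of genes, with 4.25% of all genes lower. The authors' deposited table called 2 of the 8, Solyc06g076400 (-1.63, adjusted p = 0.00277) and Solyc03g096670 (-3.34, adjusted p = 0.0181), of 7.81% of listed genes called (3.76% lower), and gave Solyc07g040990 an adjusted p of 0.0511. EdgeR's quasi-likelihood test called 0 of 8 and 3.16% of genes (adjusted p = 0.0736, 0.112 and 0.194 for these 3 loci). Without pro library 2, limma called 4 of the 8, all phosphatases lower in pro17: Solyc06g076400 (adjusted p = 0.00417), Solyc03g096670 (0.00754), Solyc05g052980 (0.0187) and Solyc07g040990 (0.0303), where 15.3% of genes were called (6.25% lower). Without pro library 3, limma called 0 of 8 and 5.39% of genes.

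The kinase and AREB1 were not called in this comparison by any tool. The kinase, at 3100 ± 929 in pro and 2688 ± 163 in pro17, had a fold change of 0.89 with a 95% interval of 0.64 to 1.25. AREB1, at 74.8 ± 41.8 and 36.5 ± 7.12, had a fold change of 0.54 with an interval of 0.28 to 1.03.

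**Figure D4:**
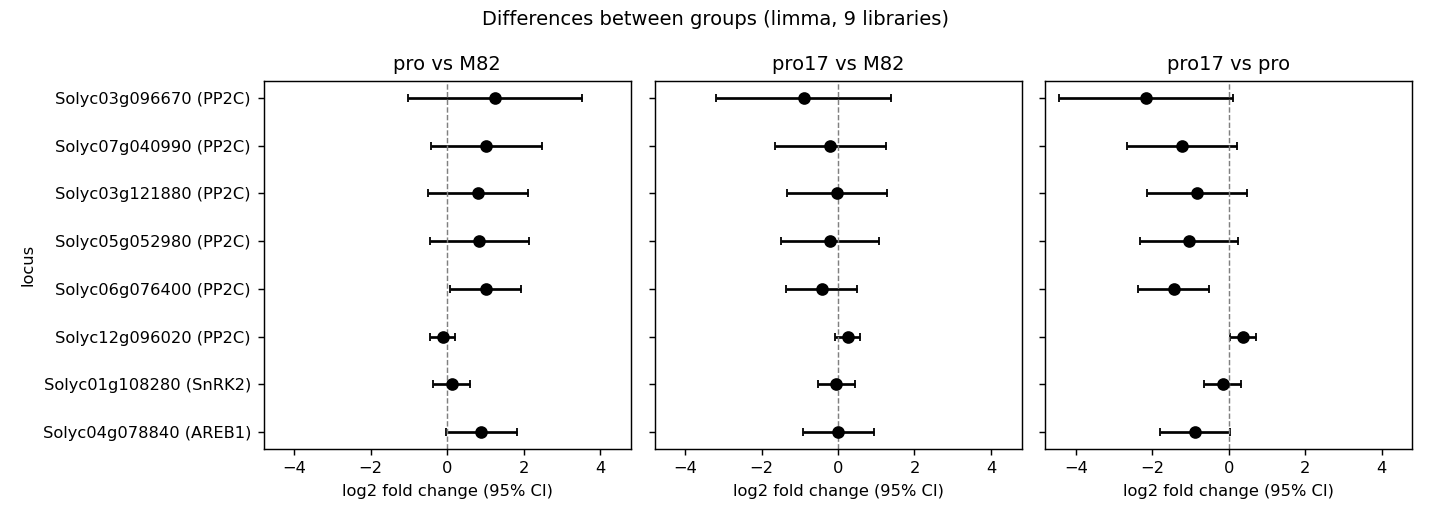
Log2 fold changes of the 8 loci in the 3 comparisons, from limma with all 9 libraries; bars are 95% confidence intervals, not adjusted for the number of genes. The intervals are widest at Solyc03g096670 and narrowest at Solyc12g096020. Those clear of 0 are Solyc06g076400 in pro against M82 and in pro17 against pro, and Solyc12g096020 in pro17 against pro.

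The patterns of the loci were also compared over all 9 libraries, with correlations given as descriptions only. The 5 variable phosphatases were grouped by their spread in these same libraries, so their r is no independent support for that grouping. Among the 5 variable phosphatases Pearson's r on log2 values was 0.89 to 0.99 for the 10 pairs, and 0.73 to 0.98 over the 8 libraries without pro library 3. Over the 9 libraries, 0.0955% to 6.32% of genes tested had a higher r with one locus of a pair than the other locus had. AREB1 had r of 0.90 to 0.94 with them, or 0.66 to 0.85 without that library. The kinase had 0.68 to 0.83, falling to 0.26 to 0.58. With these phosphatases over the 9 libraries, 1.33% to 4.23% of genes tested had a higher r than AREB1. For the kinase the share was 9.33% to 19.2%. Solyc12g096020 had -0.20 to 0.13 with the other phosphatases, or -0.33 to 0.32 without pro library 3.

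The dehydrin TAS14, named for its value in pro library 3, had r of 0.90 to 0.99 with the 5 variable phosphatases. It had 0.74 to 0.97 without pro library 3. Over the 9 libraries, 0.0286% to 3.56% of genes tested had a higher r with these phosphatases than TAS14. Libraries with more dehydrin transcripts tended to have more of these phosphatase transcripts, with and without pro library 3, but the order was not strict. Spearman's rho over the 9 libraries ran from 0.55 at Solyc06g076400 to 0.95 at Solyc07g040990. Pro library 2 had the lowest dehydrin value (7.91) but 1974 at Solyc06g076400, above M82 libraries 1 and 2 and every pro17 library. Libraries share depth, tissue preparation and the mesophyll share given above, and the points are not independent of these.

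**Figure D5:**
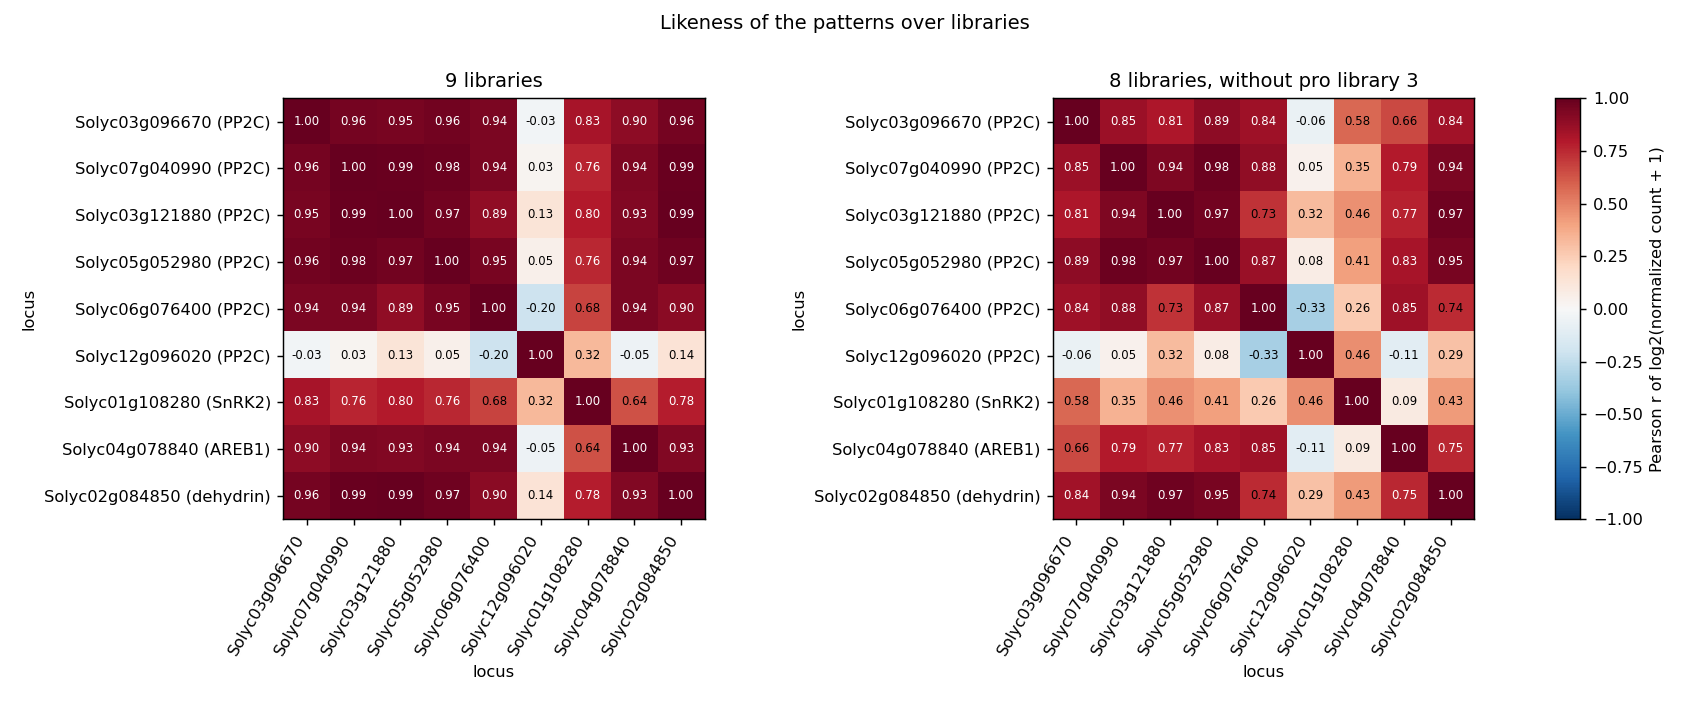
Pearson r between the patterns of the 8 loci and the dehydrin locus TAS14 on log2(normalized count + 1), over 9 libraries (left) and over 8 without pro library 3 (right). The 5 variable phosphatases, grouped by their spread in pro, form one block of high values with AREB1 and the dehydrin. Solyc12g096020 stands outside it with -0.20 to 0.13 to the other phosphatases on the left and -0.33 to 0.32 on the right.

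Of 20406 genes with a mean of at least 10 normalized counts, leaving out the 8, the 2 most like the mean log2 level of the phosphatases were Solyc07g045160 (Pearson r = 0.998, Spearman rho = 0.933, n = 9 libraries) and Solyc07g055260 (r = 0.996, rho = 0.917). Solyc07g045160 read 581, 643 and 983 normalized counts in M82, 1333, 475 and 3893 in pro, and 622, 661 and 606 in pro17. Without pro library 3 its r was 0.993. Most like the kinase was Solyc03g118425 (r = 0.965, rho = 0.933), and most like AREB1 was Solyc05g016410 (r = 0.992, rho = 0.983). The files pair no name with these identifiers.

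The rest of the pathway was read from lists set down by identifier from general knowledge, whose identities were not checked against an annotation. Of 10 receptor loci (PYR/PYL), 9 were tested, and none passed with limma, edgeR or DESeq2 in any comparison. Their median log2 fold change was -0.23 in pro against M82 (3 positive, 6 negative; 1 unadjusted p under 0.05), 0.17 in pro17 against M82 (7 positive, 2 negative; 2 such p) and 0.18 in pro17 against pro (8 positive, 1 negative; 1 such p). Of all genes tested, 6.83%, 7.79% and 18.1% had an unadjusted p under 0.05 in limma in these comparisons. Pro library 3 was the highest of the 9 at 2 receptor loci, against 29.4% of genes tested. It was the lowest at 4, for which no share over all genes was taken.

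Of 6 other SnRK2 loci, 5 were tested and none passed with any of these 3 tools. Their medians were 0.02, 0.07 and -0.06 in the order of comparisons above (0, 1 and 1 with an unadjusted p under 0.05). Of 6 loci for abscisic acid synthesis and turnover, all were tested and none passed with these tools, with medians of 0.50, 0.28 and -0.12 (1, 2 and 0 such p). Pro library 3 was the highest of the 9 libraries at 4 of 5 and 3 of 6 loci of these lists, against 29.4% of genes tested.

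Of 6 other bZIP loci, 4 were tested, with medians of 0.47, 0.11 and -0.35 (0, 2 and 2 with an unadjusted p under 0.05). One passed in limma, lower in pro17 than in pro, and is named here after its values were seen. Solyc10g050210 read 33.1, 30.4 and 63.7 normalized counts in M82, 74.0, 80.1 and 37.6 in pro, and 5.75, 10.8 and 16.9 in pro17. The pro17 libraries lay below all 6 others. Of genes tested, 10.7% had every pro17 library below every M82 library, and 11.2% below every pro library. Few reads lay behind these pro17 values, since 1 read was worth 0.959, 0.898 and 1.21 normalized counts in pro17 libraries 1, 2 and 3. Pro library 3 was the lowest of pro, the reverse of AREB1. The log2 fold change against pro was -2.46 ± 0.47 SE (adjusted p = 0.0276 in limma, 0.0312 in edgeR, 8.52e-05 in DESeq2). The call was lost with only the 6 libraries compared (adjusted p = 0.0725), without M82 library 2 (0.0506), pro library 1 (0.0966) or pro17 library 1 (0.111), 2 (0.105) or 3 (0.0528), and in those 6 libraries with a block for replicate number (0.172). It was kept without pro library 3 (adjusted p = 0.0131). Against M82, DESeq2 called 1 of the 4 loci and limma and edgeR called none.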

How the data were processed

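Poly A RNA of isolated guard cells was sequenced in 9 libraries, grouped as M82, pro and pro17 by the labels. The authors' deposited table gives signal values for 23028 genes, headed normalized counts per the file headers, beside which the authors deposited log2 fold changes and p-values, raw and adjusted, of their own comparisons. The submitters' processing notes name STAR 2.4.2a, cutadapt, HTSeq and DESeq2. The sources used here do not give the build, annotation or strand setting, which leaves near-identical, overlapping and antisense genes unresolved. Of the table's columns, 2 carry no name and were not used.

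Within 0.006, 100.0% of values in each library were whole multiples of the value of 1 read, which gave reads and totals (in pro library 1 that value is close to 1). The test was limma-trend (limma 3.58.1 in R 4.3.3) on log2(normalized count + 1), all 9 libraries in one fit, adjusted by Benjamini-Hochberg over 20951 genes that passed edgeR's expression filter (2077 left out, none of the 8 loci), with a threshold of 0.05. EdgeR 4.0.16 and DESeq2 1.42.0 ran on the recovered reads. The tests were first tried on simulated counts. Fold changes on this log scale understate changes of low genes. They compare means of log values, so they differ from ratios of group means where libraries spread widely. In pro against M82, Solyc03g096670 was at 2.40-fold in limma and 5.35-fold on group means. Members and lists were chosen with earlier results of these data known. Named are the 8 loci, TAS14, the loci most like their patterns and 1 bZIP locus. Protein and promoter sequences of these loci were not used here.

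Same-numbered pro and M82 libraries deviated together from their group means (r across genes 0.133 to 0.523), so the number was also fitted as a block. For pro17 the values were 0.0675 to 0.197 with M82 and 0.0219 to 0.184 with pro. The block fits used the pro17 numbers too, so they rest on a pairing of pro17 libraries that was not established. Alternatives were other tools and scalings, pseudocounts of 0.1 and 5, no filter, fewer libraries and the block. Counting errors leave out amplification, since no molecular identifiers are named.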

Additional observations from a re-analysis of the deposited data

How the results depend on the processing

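With 3 libraries a group and pro library 3 far from the rest, the size of the fold changes of the variable phosphatases rests on single libraries. In pro17 against pro, every locus of the 8 but the kinase kept its direction without single libraries. Solyc06g076400 ran from -1.9461 to -1.0004, Solyc03g096670 from -3.4808 to -0.9264 and Solyc03g121880 from -1.4787 to -0.065. In pro against M82 limma called 44 genes, DESeq2 183, the 6 libraries alone 23 and those with the replicate number as a block 14 (25 to 766 without single libraries). In pro17 against M82 it called 25, against 327 with DESeq2, 41 with a pseudocount of 5, 436 with the 6 libraries alone, 12 with the replicate number as a block and 470 with both (1 to 199 without single libraries). In pro17 against pro it called 712, against 1850 with DESeq2, 273 with the 6 libraries alone and 20 with the block in those (161 to 3196 without single libraries). Of the 8 loci, 0 were called in each comparison. That became 0 to 2 in pro against M82 and 0 to 4 in pro17 against pro without single libraries, the highest without pro library 2, and 3 in pro17 against pro with DESeq2. The replicate block changed no call of the 8 loci. The block within the 6 libraries compared was chosen after seeing the data.

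Of 456 fitted values of the 8 loci under these alternatives, 15 changed sign, none of them with an adjusted p under 0.05 in limma, edgeR or DESeq2. In pro against M82, leaving out single libraries gave -0.1983 to 0.018 at Solyc12g096020 and -0.0849 to 0.3665 at the kinase. In pro17 against M82 it gave -0.1046 to 0.0425 at the kinase, -0.17 to 0.24 at AREB1, -0.39 to 0.13 at Solyc05g052980, -0.15 to 0.21 at Solyc03g121880 and -0.39 to 0.11 at Solyc07g040990. AREB1 was also at -0.0016 with edgeR and -0.0144 with DESeq2. In pro17 against pro the kinase ran from -0.4095 to 0.0418. The cause of these changes was not tested. Among the 8 loci, AREB1, with at least 24 reads per library, is the one where depth limits precision most. The dehydrin locus fell lower, to 8 reads, where counting alone adds an error of about 35.4%.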
